A study of Drosophila melanogaster with 4 samples.

Results

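The nuclear genes for subunits of respiratory complex I were taken as all Drosophila genes whose current FlyBase symbol starts with ND-. The reference table of names holds 40 such genes, and 33 of them had a row in the deposited tables, out of 12073 gene IDs seen in any library. The other 7 had no row under their current ID. They are ND-30, the gene of a core subunit, and the paralogs ND-20L, ND-24L, ND-49L, ND-51L1, ND-51L2 and ND-B14.5AL. Values below are therefore those of 33 genes, all of which reached 1 RPKM in every library. RPKM is the read count of a gene divided by its deposited length and by the total of the library.

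The animals were whole female adults of Drosophila melanogaster, 1 to 3 days old, and libraries were made from poly-A RNA of each combination of genotype and feed. The wild type strain was w1118. Mutant flies carried kdm5 K6801/10424 in the w1118 background, so both genotypes share the w1118 allele and differ in kdm5, which encodes a histone demethylase. Control flies fed for 6 hours on 5% sucrose. Paraquat flies fed for 6 hours on 5% sucrose with 20 mM paraquat, a compound that cycles electrons in cells and generates superoxide. RNA came from groups of 5 flies, and each of the 4 groups has 1 library, so a replicate check is lacking throughout and no difference was tested. An interval in parentheses after a ratio is an exact 95% Clopper-Pearson interval that covers counting error only.

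Complex I, NADH:ubiquinone oxidoreductase, is the entry point of the respiratory chain for electrons from NADH. Its L shape has a matrix arm, where flavin and iron-sulfur clusters carry electrons to ubiquinone, and a membrane arm that pumps protons. The catalytic core of the matrix arm is encoded in the nucleus and that of the membrane arm in mitochondrial DNA, and many accessory subunits, all nuclear, surround both arms and are needed for assembly and stability. Complex I is a known source of superoxide, and in flies the flight muscle is the tissue richest in mitochondria.

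The wild type control library held 27.9 M reads and wild type paraquat 28.9 M, and the mutant held 28.3 M in control and 29.1 M in paraquat. This order is kept below wherever 4 values follow each other. Kdm5, the mutated gene, was at 43.4, 22.5, 2.06 and 2.03 RPKM, so the mutant libraries held little of its RNA. The wild type control stood apart over all genes: differences from it had an SD of 0.73 to 0.76 on the log2 scale, against 0.28 to 0.59 between other pairs. The size rules were an absolute difference of log2(RPKM + 1) of at least 1 and of at least 0.5, each with at least 1 RPKM in 1 of the libraries compared.

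The nuclear complex I genes were lowest in the wild type control and close to each other in the remaining libraries. Together they held 0.302% of reads (0.300% to 0.304%) in the wild type control, 0.458% (0.456% to 0.461%) in wild type paraquat, 0.523% (0.520% to 0.525%) in the mutant control and 0.492% (0.489% to 0.494%) in mutant paraquat. Their median RPKM was 69.5, 103, 116 and 103. The wild type control was the lowest library for 32 of 33 genes, the exception being ND-B8, which was lowest in the mutant control. The mutant control was the highest library for 22 genes, wild type paraquat for 8 and mutant paraquat for 3 (ND-49, ND-MLRQ and ND-MWFE). RNA came from whole animals, so fewer cells of a type and less RNA per cell cannot be told apart in any of these values.

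**Figure D1:**
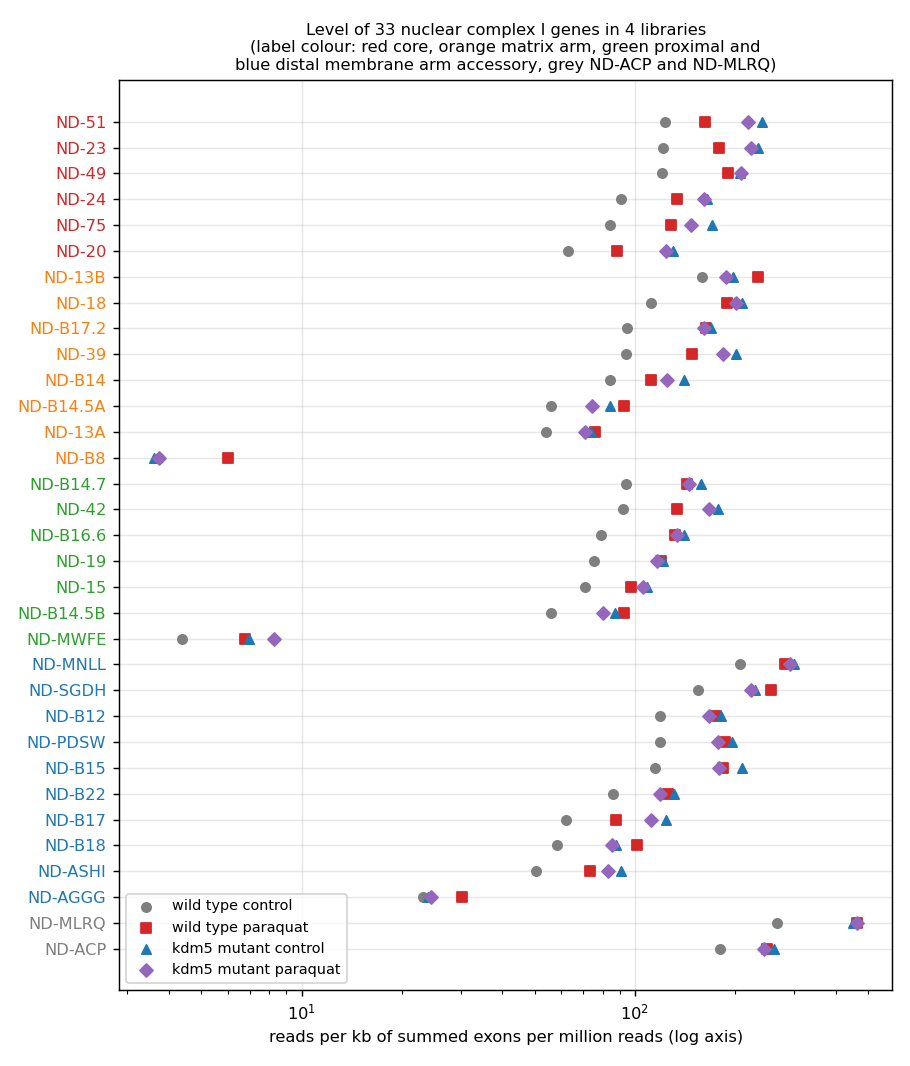
Level of each of the 33 genes in the 4 libraries, as RPKM computed with the summed exon length, on a log axis, with 1 point per library and label colours for the role. Grey points, the wild type control, are leftmost for 32 genes, and ND-B8, ND-MWFE and ND-AGGG lie far to the left of the others.

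Levels of different genes were compared per kilobase of summed exons, because for 28 of 33 genes the length in the tables matched the span with introns to within 1%, and for 1 gene the summed exons. On that scale the genes were alike in level: 28 of 33 lay within 2-fold of their median in each library. The median exon-based RPKM was 91.0, 134, 165 and 148. ND-MLRQ was at the top in every library (266, 464, 450 and 465), followed by ND-MNLL (206, 283, 299 and 293). Reads of ND-MLRQ covered 37.5% to 45.1% of its deposited length of 6613 bases, more than its 538 exon bases. Some of its reads thus lay outside these exons, so its exon-based level may be too high. The same limit holds for other members, such as ND-ACP and ND-49. Reads of ND-ACP covered 94.1% to 97.7% of 1683 bases, with 842 exon bases. Those of ND-49 covered 68.55% to 78.37% of 3259 bases, with 1593 exon bases. On the deposited scale ND-MLRQ ranked 29 of 33 in every library. ND-MLRQ is the fly counterpart of mammalian NDUFA4, a protein that in mammals was later placed in complex IV. The lowest was ND-B8 (3.73, 6.01, 3.61 and 3.74), a small matrix arm subunit. ND-MWFE (4.37, 6.76, 6.95 and 8.27) and ND-AGGG (23.2, 30.3, 23.9 and 24.4) came next. ND-B8 rests on 48, 80, 47 and 50 reads and ND-MWFE on 103, 165, 166 and 203. The order of RPKM within the set was nearly the same in every library, with Spearman correlations over the 33 genes of 0.93 to 0.996. The libraries share gene lengths and annotation, so these correlations describe the order of genes and not replication.

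In wild type flies the paraquat library was higher for every one of the 33 genes. The median difference was 0.55 (quartiles 0.49 and 0.67, range 0.31 to 0.78), against −0.29 over the 8429 genes tested, so that the set lay 0.85 above the median gene. At least 0.5 higher were 23 members, against 18.9% of all genes, and 0 members were at least 0.5 lower, against 37.8%. None of the 33 was at least 1 higher (5.21% of all genes) or at least 1 lower (10.4%). The summed reads of the set had a ratio of 1.52 (1.5 to 1.53). The size depends on scaling: median-ratio and upper-quartile scaling moved the median gene by 0.16 and 0.26, and the count at 0.5 to 32 and 33 members. The share of all genes at least 0.5 higher under these scalings is not given here. Among all genes past 1 in either direction, the part that was higher went from 33.3% to 58.5% and 72.1%. Relative to the median gene the set stayed at 0.86 and 0.87 with these scalings. That gap depends on the minimum level: it was 0.59 with no minimum RPKM and 1.03 with a minimum of 5 RPKM.

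In the mutant the paraquat and control libraries differed little for these genes. The median difference was −0.07 (quartiles −0.12 and −0.04, range −0.22 to 0.20), beside −0.05 over 8288 genes. Of 33 members 28 were below 0 and 5 above, and 0 members passed 0.5 in either direction, where 2.7% of all genes were higher and 3.12% lower. At the size of 1 the count was also 0, beside 0.712% higher and 0.603% lower. The median was −0.03 with median-ratio and −0.02 with upper-quartile scaling, so the number of members below 0 depends on scaling. The summed reads had a ratio of 0.941 (0.934 to 0.947).

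Between genotypes in control flies the mutant was higher for 32 of 33 genes. The median difference was 0.73 (quartiles 0.57 and 0.85, range −0.04 to 1.07), against −0.19 over 8364 genes. This puts the set 0.92 above the median gene, or 0.77 with no minimum RPKM and 1.01 with a minimum of 5 RPKM. At least 0.5 higher were 28 members (17.1% of all genes) and at least 0.5 lower were 0 (26.7%). ND-39, ND-20 and ND-75 were at least 1 higher (6.55% of all genes), and 0 were at least 1 lower (5.75%). The summed reads had a ratio of 1.73 (1.71 to 1.74). These 3 genes lie just past the size of 1: none passed it with a pseudocount of 5, and 8 members did with median-ratio and with upper-quartile scaling. These scalings moved the median gene by 0.10 and 0.13. Among all genes past 1 in either direction, the part that was higher went from 53.3% to 64.9% and 68.4%. The share of all genes at least 1 higher under these scalings is not given here.

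With paraquat the genotypes were close. The median difference, mutant minus wild type, was 0.02 (quartiles −0.08 and 0.20, range −0.54 to 0.48), beside 0.08 over 8487 genes, with 18 members above 0 and 15 below, and the summed reads had a ratio of 1.07 (1.06 to 1.08). This median was −0.02 with median-ratio scaling and −0.07 with upper-quartile scaling, so it has no fixed direction. No member was at least 0.5 higher (9.73% of all genes), and ND-B8 alone was at least 0.5 lower (9.17%). At the size of 1 there were 0 members on either side, beside 2.3% of all genes higher and 2.7% lower.

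The comparison of wild type paraquat with its control and that of the mutant with wild type in control share the wild type control library, and so does the difference of the paraquat responses. Taken as mutant response minus wild type response, that difference was below 0 for all 33 genes, with a median of −0.65 against 0.25 over 8611 genes. It was at least 0.5 lower for 29 members (20.6% of all genes) and at least 0.5 higher for 0 (35.6%). The wild type control was the lowest library for 32 of these genes, and with 1 library per group a response of wild type flies and a deviation of that library cannot be told apart.

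**Figure D2:**
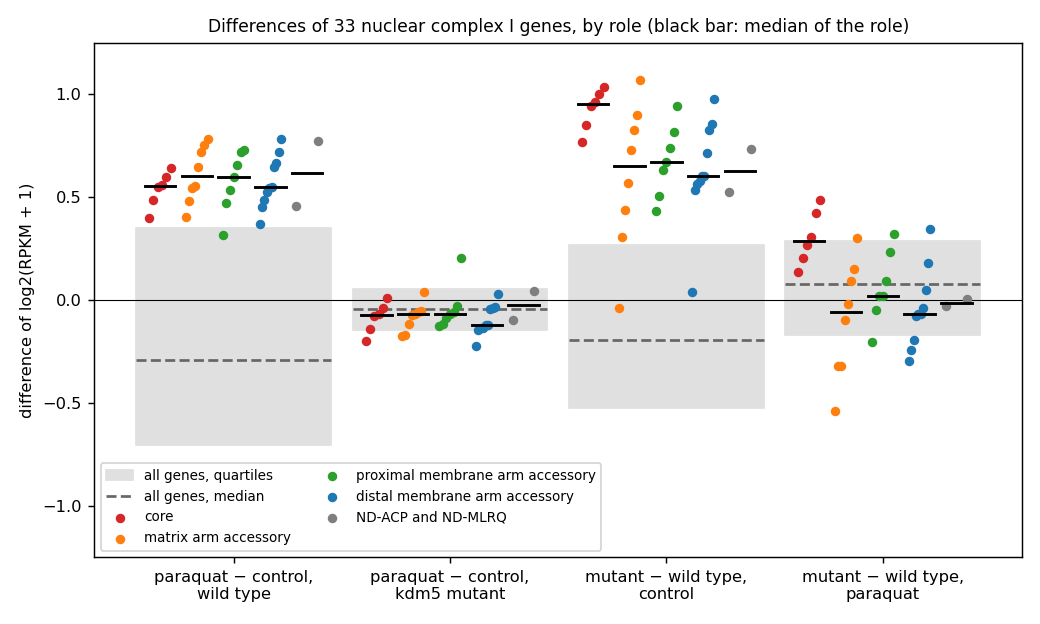
Differences of log2(RPKM + 1) in the 4 comparisons, 1 point per gene and 1 column per role, with the role's median as a black bar and the quartiles of all tested genes as a grey band with a dashed median. Members lie above the grey band in wild type paraquat for all but 1 gene, around 0 in mutant paraquat, and core genes have the highest role median in both genotype comparisons.

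The core subunits carry the flavin and the iron-sulfur clusters, and 6 of the 7 had values. ND-51 (2L, 6060842 to 6062757, minus strand; positions here and below are of BDGP6) encodes the flavin subunit, where NADH is oxidised, and was at 102, 135, 200 and 181 RPKM. Its mutant to wild type ratio was 1.96 (1.89 to 2.02) in control and 1.34 (1.30 to 1.38) in paraquat flies. ND-24 (X, 17632089 to 17633509, plus strand), which holds an iron-sulfur cluster beside the flavin subunit, was at 68.2, 100, 124 and 120 RPKM. ND-51 and ND-24 were thus higher in both mutant libraries than in either wild type library.

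ND-75 (X, 8248651 to 8251687, minus strand), the largest subunit of the complex and the holder of several clusters, was at 73.0, 111, 147 and 128 RPKM. With paraquat it had a ratio of 1.52 (1.47 to 1.57) in wild type and 0.870 (0.848 to 0.892) in the mutant. The mutant control of ND-75 was 2.02-fold (1.96 to 2.08) the wild type control. The remaining core genes belong to the module that hands electrons to ubiquinone.

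ND-20 (X, 15985473 to 15986808, minus strand) encodes the subunit with the last cluster before ubiquinone and was at 62.9, 88.5, 130 and 124 RPKM. Its mutant to wild type ratio was 2.07 (1.97 to 2.17) in control and 1.40 (1.34 to 1.47) in paraquat, the highest of the 33 genes under paraquat. ND-23 (3R, 15836048 to 15837117, minus strand), which binds a pair of clusters, was at 92.8, 137, 179 and 170 RPKM. ND-20 and ND-23 also had both mutant libraries above both wild type libraries. ND-49 (chromosome 4, 568296 to 571554, minus strand), which with ND-20 forms the ubiquinone site, was at 59.1, 92.7, 101 and 102 RPKM. Its mutant to wild type ratio was the smallest of the core, 1.71 (1.66 to 1.77) in control and 1.10 (1.07 to 1.13) in paraquat.

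The core as a group was set higher in the mutant than the other members. The core median was 0.95 in control and 0.29 in paraquat, against 0.63 and −0.03 over the 27 members outside the core. In the control comparison 19 of the 27 lay below the lowest core gene and 2 above the core median, and in paraquat 21 and 3 did. The summed reads of the core had a mutant to wild type ratio of 1.91 (1.88 to 1.94) in control and 1.22 (1.20 to 1.23) in paraquat, and those of the other members 1.65 (1.64 to 1.67) and 1.02 (1.01 to 1.02). The share of the set's reads that fell in core genes, which no scaling of the libraries can move, was 29.4% (29.1% to 29.7%) and 28.5% (28.3% to 28.7%) in the wild type libraries and 32.6% (32.3% to 32.8%) and 32.3% (32.1% to 32.5%) in the mutant libraries. The higher share in the mutant was thus seen in both conditions, in pairs of libraries with none in common. With paraquat the medians of core and other members were alike, at 0.55 for both in wild type and −0.07 for both in the mutant. With 1 library per group this difference between core and other members was not tested.

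Accessory subunits of the matrix arm had the widest spread of the roles in the genotype comparisons, with an SD over genes of 0.36 in control and 0.28 in paraquat. All 8 were higher in wild type paraquat (median 0.60, with 6 at least 0.5 higher, against 18.9% of all genes). In the mutant control 7 of 8 were higher (median 0.65, with 5 at least 0.5 higher, against 17.1%). ND-39 (3L, 20492082 to 20497084, plus strand), which binds NADPH near the junction of the arms, was at 30.4, 48.1, 64.8 and 59.6 RPKM. Its mutant to wild type ratio in control, 2.13 (2.06 to 2.21), was the highest of the 33 genes, and 1.24 (1.20 to 1.28) was found with paraquat. Like the core genes it was higher in both mutant libraries than in either wild type library.

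ND-18 (X, 19492421 to 19493337, plus strand), a subunit of the NADH-oxidising module whose human counterpart is mutated in Leigh syndrome, was at 93.3, 158, 175 and 168 RPKM. ND-B17.2 (2L, 2579201 to 2580172, minus strand) was at 71.5, 124, 128 and 122 RPKM, a ratio of 1.73 (1.63 to 1.83) in wild type and 0.955 (0.911 to 1.00) in the mutant with paraquat. In both genes only the wild type control was set apart. ND-B14, at 69.5, 92.3, 116 and 103 RPKM, had a smaller difference in wild type paraquat (0.40).

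ND-13B and ND-B14.5A differed from these, with wild type paraquat the highest library. ND-13B (3L, 10693184 to 10694108, minus strand) was at 102, 151, 127 and 121 RPKM, and its mutant to wild type ratio was 1.24 (1.18 to 1.30) in control and 0.801 (0.764 to 0.839) in paraquat. ND-B14.5A (X, 2172526 to 2173432, plus strand) was at 50.0, 82.8, 74.7 and 66.1 RPKM, with ratios of 1.5 (1.39 to 1.61) and 0.798 (0.749 to 0.850). ND-B8 (2L, 4454626 to 4455207, plus strand) was at 2.95, 4.75, 2.85 and 2.95 RPKM, and its ratio in paraquat, 0.621 (0.427 to 0.896), has a wide interval because it rests on 80 and 50 reads. The call of ND-B8 as at least 0.5 lower was lost with a pseudocount of 5 (−0.29) and with reads not divided by length (−0.47). ND-13A, the last of this group, was at 73.5, 103, 99.8 and 96.1 RPKM, with the wild type control below the other libraries.

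Accessory subunits of the proximal membrane arm, beside the matrix arm, had a median of 0.60 in wild type paraquat and 0.67 in the mutant control, with 5 and 6 of 7 at least 0.5 higher, against 18.9% and 17.1% of all genes. ND-42 (3R, 22027709 to 22029393, plus strand) was at 88.2, 128, 171 and 161 RPKM. Its mutant to wild type ratio was 1.93 (1.86 to 2.01) in control and 1.25 (1.21 to 1.29) in paraquat, close to those of core genes. ND-42 encodes a subunit related to nucleoside kinases. ND-B16.6 (X, 6349016 to 6350401, minus strand), the counterpart of a mammalian protein also studied in cell death, was at 92.9, 155, 164 and 157 RPKM, with the wild type control alone set apart.

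ND-19 (50.9, 80.8, 81.6 and 78.2 RPKM), ND-B14.7 (66.5, 101, 112 and 102 RPKM) and ND-B14.5B (47.5, 78.8, 74.2 and 68.4 RPKM) also had 1 low library, the wild type control. In ND-B14.5B wild type paraquat was the highest library, and its mutant to wild type ratio in paraquat was 0.868 (0.814 to 0.925). ND-MWFE (2R, 13158666 to 13160190, plus strand), a single-pass membrane subunit, was at 2.42, 3.74, 3.85 and 4.58 RPKM. It had the highest difference of the set in mutant paraquat, 0.20, with a ratio of 1.19 (0.965 to 1.47) whose interval includes 1. Other annotated genes cover 35% of its exon bases, so part of these reads may be theirs.

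ND-15 (2L, 114726 to 156030, plus strand) shows how the deposited length enters. Its span of 41305 bases holds 1135 exon bases, and its RPKM was 1.95, 2.67, 2.98 and 2.90. Per exon kilobase it was at 70.9, 97.1, 108 and 106, in the lower part of the set but no longer among its lowest genes. Its reads covered 4.73%, 4.87%, 7.09% and 7.24% of the span, more bases than its exons hold, and 16 other genes overlap the span. Part of the reads thus lay outside its exons, so its level and ratios may not be those of ND-15 alone. Its ratio in mutant control to wild type control was 1.53 (1.45 to 1.61), while its difference of log2(RPKM + 1), 0.43, was under 0.5 and became 0.61 per exon kilobase. The smallest difference of the set in wild type paraquat, 0.31 in ND-15, understates its ratio of 1.37 (1.30 to 1.45) in the same way.

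Accessory subunits of the distal membrane arm had a median of 0.55 in wild type paraquat, −0.12 in mutant paraquat and 0.60 in the mutant control. In wild type paraquat 7 of 10 were at least 0.5 higher (18.9% of all genes), and in the mutant control 9 of 10 were (17.1%). ND-B17 (2L, 15749319 to 15751078, minus strand) was at 42.5, 59.9, 84.7 and 76.4 RPKM, with mutant to wild type ratios of 1.99 (1.88 to 2.11) in control and 1.27 (1.21 to 1.34) in paraquat. ND-ASHI (37.7, 54.7, 67.5 and 62.0 RPKM) was likewise higher in both mutant libraries. These 2 were the only distal genes with both mutant libraries above both wild type libraries by more than counting error.

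ND-B18 (X, 15063733 to 15064926, plus strand) had the largest difference of the set in wild type paraquat, 0.78, at 61.2, 106, 92.0 and 89.4 RPKM. ND-SGDH had the same order of libraries, at 126, 208, 187 and 182 RPKM. In both genes wild type paraquat was the highest library. ND-AGGG (3L, 24976254 to 24977118, plus strand) was at 20.0, 26.1, 20.6 and 21.0 RPKM, and wild type paraquat was its single high library. Its ratio was 1.30 (1.16 to 1.47) with paraquat in wild type, and 1.03 (0.907 to 1.17) between genotypes in control. ND-AGGG and ND-B8 were thus the members for which the control libraries of the genotypes did not differ beyond counting error.

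ND-B15 (2R, 14756516 to 14757072, plus strand) had the lowest difference of the set in mutant paraquat, −0.22, at 98.6, 157, 179 and 153 RPKM. Its ratio with paraquat was 1.59 (1.5 to 1.70) in wild type and 0.857 (0.811 to 0.905) in the mutant. ND-B12 (103, 152, 157 and 145 RPKM), ND-B22 (74.1, 109, 113 and 103 RPKM) and ND-PDSW (75.2, 118, 124 and 113 RPKM) had the wild type control low and the rest close together. ND-MNLL was at 199, 273, 289 and 282 RPKM, with the wild type control lowest. All exon bases of ND-MNLL lie within CG45089, so its reads cannot be assigned to 1 of the genes.

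Finally, ND-ACP (3L, 1329949 to 1331631, plus strand) encodes the mitochondrial acyl carrier protein, which serves fatty acid synthesis and iron-sulfur cluster assembly besides complex I. It was at 90.4, 125, 131 and 122 RPKM. ND-MLRQ was at 21.7, 37.7, 36.6 and 37.8 RPKM, and its ratio in wild type paraquat, 1.74 (1.68 to 1.81), was just above the 1.73 (1.64 to 1.84) of ND-B18. Part of the reads of ND-MLRQ lay outside its exons, and 6 other genes overlap its span. Its ratio may thus not be that of ND-MLRQ alone. ND-ACP and ND-MLRQ both had only the wild type control set apart.

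The genotype differences of single genes were ordered alike in the pair of control libraries and the pair of paraquat libraries, which have no library in common. Over the 33 genes Spearman's rho was 0.76 and Pearson's r 0.81, and over the 27 outside the core 0.64 and 0.76. Over 8240 genes tested the values were 0.07 and 0.33. Over the 15 members whose exons no other annotated gene overlaps they were 0.89 and 0.88. The paraquat differences in wild type and in the mutant, also without a shared library, had a rho of −0.03 and an r of −0.09 over the 33 genes. These are descriptions across genes of 4 libraries; genes are not replicates.

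**Figure D3:**
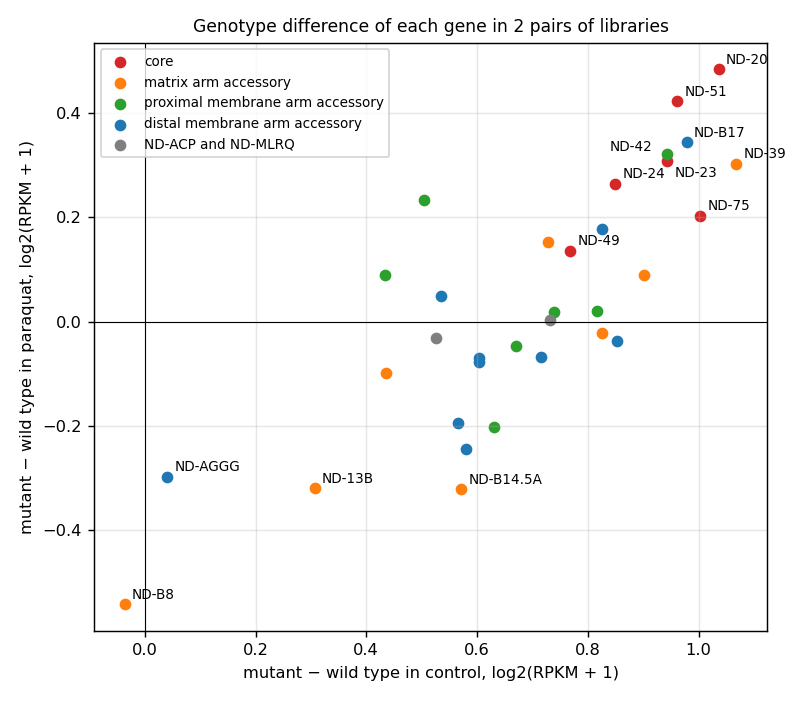
Difference of log2(RPKM + 1), mutant minus wild type, in control (horizontal) and in paraquat (vertical) libraries, 1 point per gene, coloured by role. Core genes, ND-39, ND-B17 and ND-42 lie at the upper right and ND-B8, ND-AGGG, ND-13B and ND-B14.5A at the lower left.

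Longer members had larger genotype differences. The core genes have a median summed exon length of 1463 bases (819 to 2634) and the others 768 (460 to 1618). Exon length and the difference, mutant minus wild type, had a Spearman rho of 0.45 in control and 0.57 in paraquat over the 33 genes, and of 0.22 and 0.41 over the 27 outside the core. Over all genes with an exon length rho was −0.07 in both. Role and length moved together in this set, and the part of length in the differences of core genes was not tested. Exon length and the paraquat difference had a rho of −0.15 in wild type and −0.06 in the mutant.

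**Figure D4:**
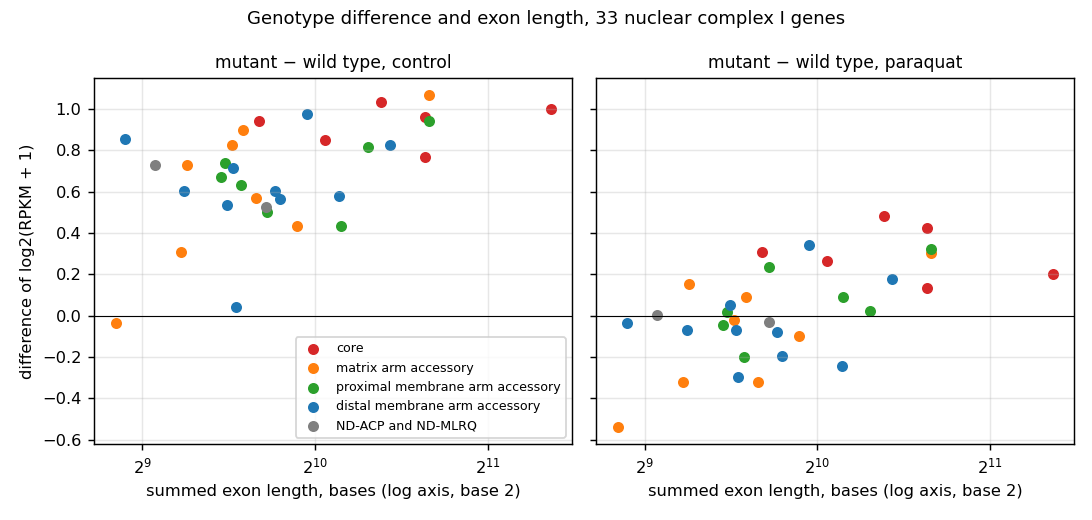
Difference of log2(RPKM + 1), mutant minus wild type, against summed exon length on a log axis, for control (left) and paraquat (right), 1 point per gene, coloured by role. Most core genes are long and lie high in both panels, and short genes spread from ND-B8 at the bottom to differences above 0.8 in control.

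The 7 core subunits of the membrane arm come from mitochondrial DNA. The median differences of their transcripts were apart from those of the nuclear genes in the comparisons that use a paraquat library. In wild type paraquat all 7 were at least 1 higher, against 5.21% of all genes. Their median difference was 3.18 (range 1.11 to 6.21), against 0.55 for the nuclear genes. The largest, in mt:ND3, rests on 53 reads in the wild type control. The median was 0.75 in mutant paraquat, 0.93 for the mutant in control and −1.44 for the mutant in paraquat. For the mutant in control the nuclear median was 0.73, and the mitochondrial genes ranged from −0.21 to 1.64, with 5 above 0 and 2 below. mt:ND4 was at 88.3, 810, 179 and 298 RPKM and mt:ND5 at 47.5, 640, 98.2 and 125. mt:ND1, the most abundant, was at 429, 1914, 820 and 1509 RPKM. Wild type paraquat was the highest library for every one of the 7, whereas the mutant control was highest for most nuclear genes.

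Nuclear genes held 82.9% (82.6% to 83.1%) of the reads of nuclear and mitochondrial complex I genes in the wild type control and 51.6% (51.4% to 51.8%) in wild type paraquat. In the mutant they held 81.3% (81.1% to 81.4%) and 70.0% (69.8% to 70.1%). The mitochondrial large ribosomal RNA, which is no complex I gene, took 9.12%, 11.5%, 10.4% and 12.9% of all reads in these libraries of poly-A RNA. Its reads enter neither side of the shares in this paragraph, which are of complex I reads only. Shares of all reads without it are given further below.

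**Figure D5:**
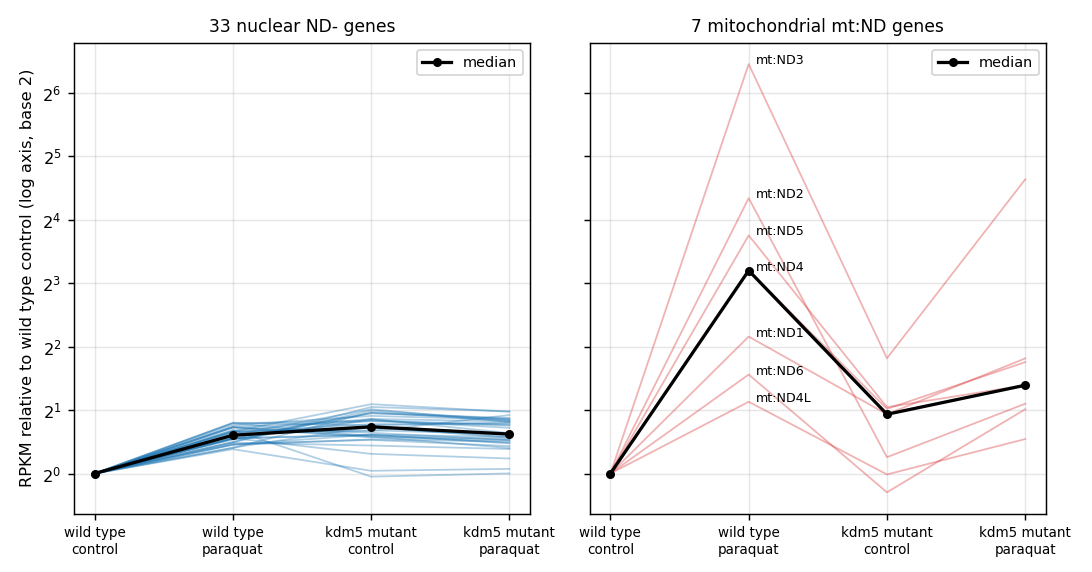
RPKM relative to the wild type control on a log axis of base 2, for the 33 nuclear genes (left) and the 7 mitochondrial genes (right), with each gene as a thin line, the median as a black line, and libraries along the horizontal axis. Nuclear genes lie between 0.967-fold and 2.13-fold in the other libraries, while mitochondrial genes peak in wild type paraquat at unequal heights.

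Genes that act with complex I without being part of it were taken from a list of assembly factors, 7 of which had a row. Their median differences were −0.14 in wild type paraquat, −0.12 in mutant paraquat, −0.07 for the mutant in control and 0.12 for the mutant in paraquat. In wild type paraquat 0 of 7 were at least 0.5 higher, against 18.9% of all genes. Only ECSIT (15.5, 9.67, 14 and 13.4 RPKM) was at least 0.5 lower, against 37.8%. In the mutant control CG3270 (15.8, 22.5, 44.7 and 32.5 RPKM) was at least 1 higher, against 6.55% of all genes. No other assembly gene was past 0.5 there. The medians of subunit and assembly genes were thus apart in both comparisons that use the wild type control, while single genes overlapped: CG3270 differed by 0.49 in wild type paraquat and CIA30 by 0.40 in the mutant control. The difference between these lists was not tested.

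Nuclear genes of complexes II to V had the same pattern as those of complex I. Of 33 with at least 1 RPKM, 30 were at least 0.5 higher in wild type paraquat (median 0.73), against 18.9% of all genes. In the mutant control 29 were (median 0.84), against 17.1%. The count was 0 in mutant paraquat (median −0.11), against 2.7%, and 0 for the mutant in paraquat (median −0.04), against 9.73%. Complex I members held 20.5% (20.4% to 20.7%), 18.4% (18.3% to 18.5%), 19.4% (19.3% to 19.4%) and 19.3% (19.2% to 19.4%) of the reads of these genes and their own together. The pattern is therefore shared with the other complexes and is not particular to complex I.

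Markers of tissues also differed between the libraries. Of 13 muscle genes, 12 were at least 1 higher in wild type paraquat and 6 in the mutant control, against 5.21% and 6.55% of all genes. Their medians were 1.48 and 0.95, and their summed level was 3276, 10088, 7457 and 6869 RPKM. With paraquat the mutant lay below wild type for 12 of 13 muscle genes (median −0.48), where the complex I median was 0.02. Of 14 female germline genes, 9 were at least 1 lower in wild type paraquat (median −1.34), against 10.4% of all genes. In the mutant control 5 were (median −0.89), against 5.75%. Their sums were 2991, 1291, 745 and 763 RPKM, but dhd alone was at 2014, 775, 114 and 110 RPKM, so the sums depend largely on this gene. With paraquat 11 of the 14 were higher in the mutant than in wild type and 3 lower (median 0.18). Of 9 eggshell genes 6 were at least 1 lower in wild type paraquat (median −2.96), against 10.4% of all genes. In the mutant control 3 were (median −0.60), against 5.75%, while yellow-g2 and yellow-g were higher, by 1.02 and 0.82. The eggshell sums were 7491, 2730, 3708 and 2048 RPKM. In mutant paraquat, where no complex I gene passed 0.5, 8 of the 9 eggshell genes were at least 0.5 lower (median −0.95), against 3.12% of all genes. Of these, 4 were at least 1 lower, against 0.603%. Of 8 neuron genes 5 were at least 0.5 higher in wild type paraquat (median 0.74), against 18.9% of all genes. In the mutant control 0 of 7 tested were (median 0.23), against 17.1%. Of 7 testis genes with a row 6 were under 1 RPKM in every library, and bol was at 8.22, 14.3, 11.0 and 11.0 RPKM. The part of tissue makeup in the complex I differences was not tested.

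Of the genes without a row, the paralogs have spans that put the level of 3 reads at 0.0481 to 0.142 RPKM, if a missing row stands for 0 reads. A row can be missing for another reason, and ND-30, the gene of a core subunit, had none under its current ID either, so no level is given for any of the 7. NdufA3 (35.3, 52.2, 49.9 and 41.7 RPKM) and NdufV3 (109, 172, 160 and 151 RPKM) encode complex I subunits under other symbols and were picked after their values were seen. Both had the wild type control as their lowest library, as the ND- genes did. Of the 33 genes, 18 have exon bases that another annotated gene overlaps, and the median differences of the 15 others were 0.56, −0.09, 0.83 and 0.14 in the 4 comparisons.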

How the data were processed

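Each of the 4 libraries has 1 deposited table that lists for every FlyBase gene ID, per the file headers, the count of reads that mapped uniquely, a length, the percent of it covered and RPKM. Deposited RPKM equalled deposited counts divided by length and by the library total, with a largest relative gap of 5.13e-07. Cufflinks and the build dm3 are named, per the submitters' processing notes, while the sources used here do not give the aligner, the annotation release or the use of strand. Depths of 27.9 to 29.1 M reads gave members a median of 2249 to 3508 reads per library. The smallest count listed was 1, and an ID without a row in a library was taken as 0 reads; of the 40 genes of the set, those without any row got no value.

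From these values the differences of log2(RPKM + 1) were computed over all gene IDs, with python 3.11.15, numpy 2.4.6, scipy 1.17.1 and pandas 2.3.3. A gene was tested for size with at least 1 RPKM in 1 of the libraries compared. Ratios are of reads over library totals, and their 95% Clopper-Pearson intervals were converted from that of the split of a gene's reads between 2 libraries; reads carry no molecular identifiers, so intervals cover counting error only. Symbols came from a FlyBase name table that matched 11667 of the IDs. Positions, exon sums and overlaps came from BDGP6, Ensembl release 115, a later build than dm3, and the files carry no coordinates. ND-NP15.6 was not matched and was not analysed here. The calculations were tested on simulated counts.

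No test was made, as each group has 1 library. Every member may be named; in each comparison the 4 highest, the 4 lowest and the core genes are described, and outside the set Kdm5, the mitochondrial complex I genes and up to 2 genes per list. Further genes were added after their values were seen. The members and the gene lists were chosen with earlier results of these data known. The alternatives tried were a pseudocount of 0.1 or 5, a minimum of 5 RPKM or none, median-ratio and upper-quartile scaling, totals without the mitochondrial large ribosomal RNA, reads not divided by length and RPKM per summed exons. Members without exon overlap and members outside the core were added as alternatives after the data were seen.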

Additional observations from a re-analysis of the deposited data

Results flagged for a closer look

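ND-B15, an accessory subunit gene of the distal membrane arm, was picked because its paraquat differences had opposite signs in the genotypes, each at least 0.2 in size. They were 0.67 in wild type and −0.22 in the mutant, so that the mutant response minus the wild type response was −0.89. The difference between the genotypes was not tested, as each group has 1 library. Its mutant control, at 179 RPKM, was the highest of its libraries and its wild type control, at 98.6 RPKM, the lowest. In the mutant the difference was −0.18 with median-ratio scaling, −0.16 with upper-quartile scaling and −0.18 with totals that leave out the mitochondrial large ribosomal RNA, each under 0.2 in size, so the choice of this gene depends on scaling. As deposited, no other member reached 0.2 with opposite signs, but ND-75 came close, at 0.60 in wild type and −0.1995 in the mutant. With a pseudocount of 0.1 the mutant value of ND-75 was −0.2008, past the cut. Opposite signs as such were common, as all 33 members were above 0 in wild type paraquat and 28 below 0 in mutant paraquat.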

How the results depend on the processing

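Medians and counts past a size were recomputed under each alternative. The count of members at least 1 higher in the mutant control, 3 as deposited, was 0 with a pseudocount of 5 and 8 with median-ratio and with upper-quartile scaling. The count at least 1 higher in wild type paraquat, 0 as deposited, was 8 with upper-quartile scaling, which moved the median gene there by 0.26. Shares of all genes past these sizes are not given for the alternatives. The 1 member at least 0.5 lower in the mutant with paraquat, ND-B8, became 0 with a pseudocount of 5, with a minimum of 5 RPKM and with reads not divided by length. The 0 members at least 0.5 higher there became 1, ND-20 at 0.51, with totals that leave out the mitochondrial large ribosomal RNA. The share of reads in members was 0.281%, 0.481% and 0.505% in wild type control, wild type paraquat and mutant paraquat with median-ratio scaling; 0.271%, 0.502%, 0.517% and 0.506% in the 4 libraries with upper-quartile scaling; and 0.333%, 0.518%, 0.583% and 0.564% of reads without the large ribosomal RNA. The remaining 210 recomputed medians, counts and shares kept their direction or stayed within 1.5 times, apart from the following medians. In mutant paraquat the median shrank from −0.07 to −0.03 with median-ratio scaling and without the large ribosomal RNA, and to −0.02 with upper-quartile scaling. The median in wild type paraquat rose from 0.55 to 0.84 with upper-quartile scaling. Between genotypes in paraquat the median was 0.02 as deposited. It was −0.02 with median-ratio scaling, −0.07 with upper-quartile scaling and −0.03 for members outside the core. It was 0.04 without the large ribosomal RNA, 0.01 with a minimum of 5 RPKM and 0.14 for members without exon overlap. Apart from the alternatives' own construction, the cause of these changes was not tested. The order of levels within the set followed the length used: its Spearman correlation with the deposited order was 0.66 to 0.69 per exon kilobase. With 1 library per group no library could be left out, no paired analysis was possible because each group has a single replicate, and depth limits ND-B8 most, at 47 to 80 reads.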

Other observations

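Of the 33 genes 9 lie on the X chromosome, and their median differences, in the order wild type paraquat, mutant paraquat, mutant in control and mutant in paraquat, were 0.60, −0.07, 0.83 and 0.09. The 24 genes on other chromosomes had medians of 0.55, −0.08, 0.69 and −0.03. CG3270, from the list of complex I assembly genes, was 1.45 higher in the mutant control and 0.51 higher in the mutant with paraquat.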
